A study of Mus musculus with 12 samples.

Results

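The primed epiblast factors are the 7 genes Zic2, Zic5, Fgf5, Otx2, Pou3f1, Sox3 and Foxd3, of 19939 genes with a probe set of their own. They were taken by name, each through the probe sets that the array annotation assigns to it, and a gene with more than 1 probe set was read from the one with the highest mean over all arrays. Only Zic5 has another probe set, which served as a check. RNA was measured on 12 arrays from 4 lines of induced pluripotent stem (iPS) cells, 3 cultures per line. All lines came from embryonic fibroblasts of C57BL/6J mice, were made with 3 factors and were grown in medium for embryonic stem cells. LiPS-45 and LiPS-57 have tetraploid complementation competence: injected into a tetraploid host embryo, which itself contributes mainly extraembryonic tissue, such cells can form the embryo. LiPS-47 and LiPS-50 are without it. Each line has its own cultures only, so competence stands on 2 lines with it and 2 lines without it, and a p-value between lines is set against culture-to-culture spread.

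Pluripotent cells of the mouse pass from a naive state, that of the preimplantation epiblast and of embryonic stem cells, through a formative to a primed state, that of the epiblast after implantation. FGF signalling through ERK drives this transition, while Nodal signalling keeps the later epiblast undifferentiated. OTX2 and the POU protein OCT6, encoded by Pou3f1, direct OCT4 to enhancers of the later state, Fgf5 is the classical marker of that state, and ZIC and SOX3 proteins act in the epiblast and the early neural plate. Foxd3 is needed to maintain the epiblast and acts again in the neural crest. Cultures of mouse embryonic stem cells usually hold some cells with RNA of these genes. The array reads a mixture of all cells of a culture, so fewer cells of a type and less RNA per cell cannot be told apart.

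Levels are given as log2(intensity + 1), a scale on which 1 unit is a doubling of intensity and which understates differences of dim genes. Levels of different probe sets are not on a common scale, so each gene is compared with itself between lines. All 7 members had a mean above 5.21, the 40th percentile of the 28939 probe sets tested. The arrays of a line correlated at 0.9957 to 0.9974 over these probe sets, and by this measure no array stood apart from its line. It does not show whether cultures differed in their mixture of cells. The mean level of the fibroblast and feeder cell markers, read below, ranged from 8.58 to 8.96 in LiPS-47 and from 8.85 to 9.13 in LiPS-45.

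The promoter table of RefSeq (GRCm38.p6) holds entries for 4 of the 7 members, Zic5, Fgf5, Otx2 and Foxd3. The 250 bases before the start site of Zic5 and Fgf5, and before the first and the 3rd of 4 start sites of Otx2, are shown because these genes stood lower in LiPS-50 together; that of Foxd3 is shown beside them for comparison. Each is written 5′ to 3′ on the strand of its gene, with CpG dinucleotides in capitals. The intervals are chr14:122465659-122465908 (minus strand) for Zic5, chr5:98253934-98254183 (plus strand) for Fgf5, chr14:48667645-48667894 and chr14:48665110-48665359 (minus strand) for Otx2, and chr4:99656049-99656298 (plus strand) for Foxd3.
Zic5: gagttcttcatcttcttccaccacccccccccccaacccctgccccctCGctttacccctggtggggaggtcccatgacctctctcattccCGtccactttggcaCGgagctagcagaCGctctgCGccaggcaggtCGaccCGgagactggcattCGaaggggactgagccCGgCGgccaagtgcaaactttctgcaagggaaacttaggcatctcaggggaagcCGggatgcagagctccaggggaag
Fgf5: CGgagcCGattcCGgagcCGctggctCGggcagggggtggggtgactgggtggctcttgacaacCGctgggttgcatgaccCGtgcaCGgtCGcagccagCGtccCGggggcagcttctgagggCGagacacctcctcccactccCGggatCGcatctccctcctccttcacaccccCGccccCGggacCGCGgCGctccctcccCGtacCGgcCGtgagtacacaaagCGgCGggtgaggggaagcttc
Otx2, first start site: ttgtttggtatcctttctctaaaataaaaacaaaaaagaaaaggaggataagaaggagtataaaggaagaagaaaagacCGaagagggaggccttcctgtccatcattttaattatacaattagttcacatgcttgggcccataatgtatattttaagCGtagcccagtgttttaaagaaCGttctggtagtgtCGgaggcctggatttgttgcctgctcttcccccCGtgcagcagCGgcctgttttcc
Otx2, 3rd start site: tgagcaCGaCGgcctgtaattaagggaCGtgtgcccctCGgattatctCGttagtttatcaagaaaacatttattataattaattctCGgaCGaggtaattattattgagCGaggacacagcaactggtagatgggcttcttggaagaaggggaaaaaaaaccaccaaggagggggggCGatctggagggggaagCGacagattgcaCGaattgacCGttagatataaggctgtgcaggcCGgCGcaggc
Foxd3: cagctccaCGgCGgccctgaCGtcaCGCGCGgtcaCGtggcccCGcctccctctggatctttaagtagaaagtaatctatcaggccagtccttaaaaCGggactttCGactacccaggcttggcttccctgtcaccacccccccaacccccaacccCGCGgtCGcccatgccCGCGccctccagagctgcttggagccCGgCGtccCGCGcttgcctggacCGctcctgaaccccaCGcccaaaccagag

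These promoters are not alike in CpG content. Fgf5 holds 24 CpG in 250 bases, a number reached by 12% of the 32851 promoters in the table, and Foxd3 holds 21, reached by 16.3%. Zic5 holds 11, reached by 35.6%, whereas the first start site of Otx2 holds 6, which is also the median of all promoters. The 3rd start site of Otx2 holds 14, reached by 29.4%, and its start sites not shown hold 8 and 9. The following short motifs were searched on both strands: the octamer ATGCAAAT, bound by POU proteins and found in 1.6% of all promoters, ACAATG, a SOX core found in 10.7%, TAATCC, an OTX core found in 6.25%, and CCTGCTG, a ZIC core found in 8.44%. Over the 7 entries of the 4 genes, the only match was a TAATCC before the 3rd start site of Otx2. A match is a description of letters and not a site, and no match says only that these letters are not in this window.

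The lines fell into LiPS-50 on one side and the other lines on the other for Zic2, Zic5, Fgf5 and Otx2. Zic2 and Zic5 encode zinc finger transcription factors of the ZIC family and lie side by side on chromosome 14, with no other measured gene between them. Zic2 had levels of 8.62, 8.57 and 8.68 in LiPS-45, 8.58, 8.70 and 8.64 in LiPS-57, 8.33, 8.56 and 8.41 in LiPS-47, and 7.53, 7.41 and 7.30 in LiPS-50. All LiPS-50 cultures lay below every culture of the other lines, by more than any spread within a line. The differences were 1.21 (LiPS-45 minus LiPS-50; 2.31-fold; limma adjusted p = 1.06e-06), 1.22 (LiPS-57 minus LiPS-50; 2.34-fold; limma adjusted p = 1.26e-06) and 1.02 (LiPS-47 minus LiPS-50; 2.03-fold; limma adjusted p = 4.14e-06), each with a standard error of 0.0774. These 3 comparisons share the LiPS-50 arrays, as all comparisons with that line do, so they are not independent of each other.

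Zic5 gave nearly the same pattern on its brightest probe set. Its levels were 9.06, 9.06 and 9.18 in LiPS-45, 9.04, 9.08 and 9.01 in LiPS-57, 8.93, 8.99 and 9.10 in LiPS-47, and 8.22, 7.95 and 8.01 in LiPS-50. The groups did not overlap between LiPS-50 and any other line, while the other lines overlapped each other. The differences from LiPS-50 were 1.04 for LiPS-45, 0.99 for LiPS-57 and 0.95 for LiPS-47 (standard error 0.0778; limma adjusted p of 3.56e-06, 7.32e-06 and 8.07e-06, in the same order), that is 2.06-fold, 1.98-fold and 1.93-fold. The dimmer probe set of Zic5 had the same direction and a smaller size, with differences of 0.53, 0.55 and 0.64 (1.44-fold, 1.47-fold and 1.56-fold; limma adjusted p of 0.00255, 0.00203 and 6.49e-04). Its cultures lay between 6.71 and 7.14 over LiPS-45, LiPS-57 and LiPS-47 and between 6.19 and 6.41 in LiPS-50. The numbering of the brightest probe set does not match its assignment to a gene on chromosome 14: all 10 annotated probe sets nearest to it in number lie on chromosome 11, whereas 9 of the 10 nearest to the dimmer one lie on chromosome 14, as do all 10 nearest to that of Zic2. The genes numbered on either side of the brightest one, Gm12238 and Gria1, were read for this reason: Gria1 passed in none of the comparisons with LiPS-50, and Gm12238 passed in LiPS-45 minus LiPS-50 alone, with a difference of 0.42.

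Fgf5, a secreted FGF ligand, was lower in LiPS-50 than in each of the other lines. Its levels were 8.95, 8.71 and 8.78 in LiPS-45, 8.56, 8.86 and 8.71 in LiPS-57, 8.71, 8.73 and 8.67 in LiPS-47, and 7.71, 7.88 and 7.98 in LiPS-50. The lowest culture of the other lines stood well above the highest LiPS-50 culture, and LiPS-45, LiPS-57 and LiPS-47 overlapped. The differences from LiPS-50 were 0.96 for LiPS-45 (1.95-fold), 0.86 for LiPS-57 (1.81-fold) and 0.85 for LiPS-47 (1.80-fold), with a standard error of 0.0941 and limma adjusted p of 3.21e-05, 1.02e-04 and 9.41e-05.

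Otx2, a homeodomain factor, followed with smaller differences. Its levels were 8.67, 8.77 and 8.74 in LiPS-45, 8.79, 8.83 and 8.72 in LiPS-57, 8.57, 8.46 and 8.64 in LiPS-47, and 7.95, 8.22 and 8.16 in LiPS-50. LiPS-47 lay between the competent lines and LiPS-50, with no overlap on either side. The differences from LiPS-50 were 0.62 for LiPS-45 (1.53-fold), 0.67 for LiPS-57 (1.59-fold) and 0.44 for LiPS-47 (1.36-fold), with a standard error of 0.0774 and limma adjusted p of 2.22e-04, 1.45e-04 and 0.00185. The step from LiPS-47 up to the competent lines, 0.17 for LiPS-45 and 0.22 for LiPS-57, did not pass (limma adjusted p = 0.546 and 0.562).

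**Figure D1:**
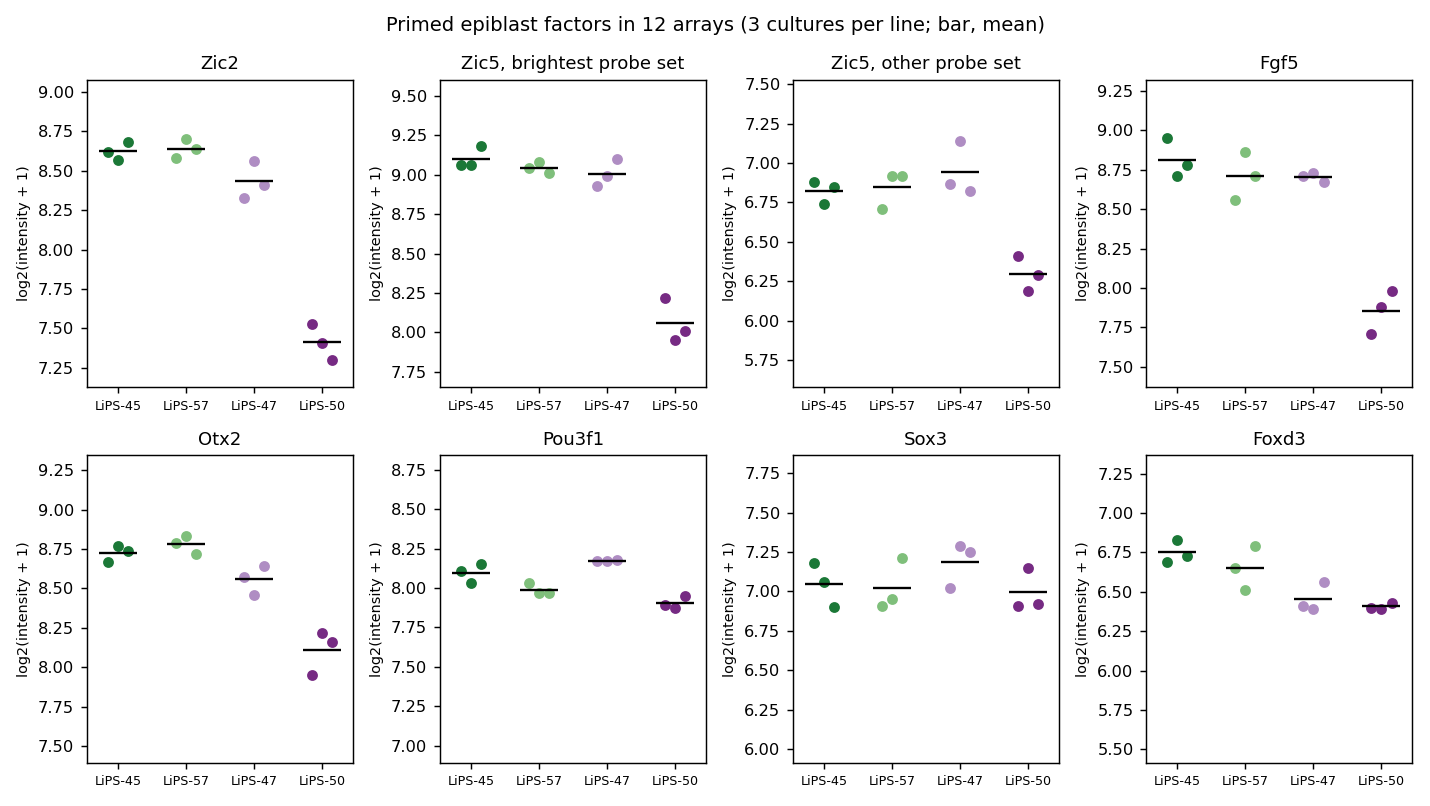
Level of each primed epiblast factor on the 12 arrays, as log2(intensity + 1), with 1 point per culture, a bar at the mean of each line and both probe sets of Zic5. The points of LiPS-50 lie below all others for Zic2, Zic5, Fgf5 and Otx2, and by little for Pou3f1, whereas those of Sox3 overlap in all lines.

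The other 3 members did not show a separation of this size. Pou3f1 had levels of 8.11, 8.03 and 8.15 in LiPS-45, 8.03, 7.97 and 7.97 in LiPS-57, 8.17, 8.17 and 8.18 in LiPS-47, and 7.89, 7.87 and 7.95 in LiPS-50. LiPS-50 was again lowest and without overlap, but by little. Pou3f1 was higher by 0.27 in LiPS-47 minus LiPS-50 (1.2-fold; standard error 0.0553; limma adjusted p = 0.00528) and by 0.19 in LiPS-45 minus LiPS-50 (1.14-fold; limma adjusted p = 0.0334), while LiPS-57 minus LiPS-50 gave 0.085 (limma adjusted p = 0.377). The LiPS-45 call did not hold when LiPS-45 replicate 1 or 3 or LiPS-50 replicate 1 or 2 was left out (limma adjusted p between 0.0839 and 0.122), nor when those lines were fitted alone (0.0998).

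Sox3, a SOXB1 factor and the only member on the X chromosome, showed no difference between lines that passed. Its levels were 7.18, 7.06 and 6.90 in LiPS-45, 6.91, 6.95 and 7.21 in LiPS-57, 7.02, 7.29 and 7.25 in LiPS-47, and 6.91, 7.15 and 6.92 in LiPS-50. Every line overlapped every other. The differences from LiPS-50 were 0.051 for LiPS-45 (95% interval -0.19 to 0.29), 0.027 for LiPS-57 (-0.21 to 0.26) and 0.19 for LiPS-47 (-0.046 to 0.43), with limma adjusted p of 0.820, 0.924 and 0.299. The intervals leave out differences of the size seen for Zic2, Zic5 and Fgf5.

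Foxd3, a forkhead factor, was higher in LiPS-45 than in LiPS-50, and LiPS-47 stood near LiPS-50 rather than near the competent lines. Its levels were 6.69, 6.83 and 6.73 in LiPS-45, 6.65, 6.51 and 6.79 in LiPS-57, 6.41, 6.39 and 6.56 in LiPS-47, and 6.4, 6.39 and 6.43 in LiPS-50. LiPS-47 and LiPS-50 overlapped at the low end, LiPS-45 stood above both, and the lowest LiPS-57 culture lay within the range of LiPS-47. LiPS-45 minus LiPS-50 was 0.34 (1.27-fold; standard error 0.0772; limma adjusted p = 0.00954), LiPS-57 minus LiPS-50 was 0.24 (limma adjusted p = 0.0532) and LiPS-47 minus LiPS-50 was 0.046 (95% interval -0.12 to 0.21; limma adjusted p = 0.781). Against the other line without competence, LiPS-45 minus LiPS-47 was 0.30 and LiPS-57 minus LiPS-47 was 0.20 (limma adjusted p = 0.252 and 0.646). The LiPS-57 minus LiPS-50 difference stood near the threshold and passed under 4 of the alternative settings that keep all arrays, with adjusted p between 0.0234 and 0.037.

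**Figure D2:**
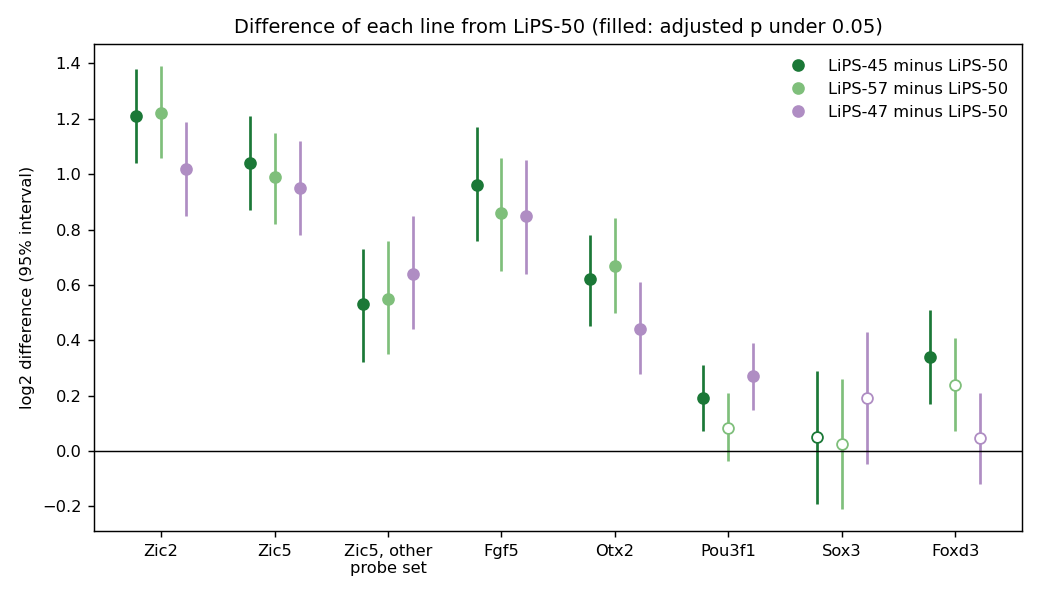
Difference of each line from LiPS-50 on the log2 scale with its 95% interval, for each primed epiblast factor and for the other probe set of Zic5, with filled points for limma adjusted p under 0.05. Zic2 has the largest differences, from 1.02 to 1.22, and the intervals of Sox3 include 0 in all comparisons.

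Counted over the members, 6 of 7 passed as higher in LiPS-45 minus LiPS-50, against 8.30% of all probe sets tested, and their median difference was 0.62, against -0.013 over all genes. In LiPS-57 minus LiPS-50, 4 of 7 were higher, against 7.48% of all probe sets, with a median of 0.67 against -0.0068 over all genes. In LiPS-47 minus LiPS-50, 5 of 7 were higher, against 7.31% of all probe sets, with a median of 0.44 against 0.0083 over all genes. No member passed as lower in these comparisons, against 8.18% (LiPS-45), 8.16% (LiPS-57) and 8.48% (LiPS-47) of all probe sets. The members were chosen with earlier results of these data known, so these counts beside the shares are a description and not independent support. Ranked from the highest difference among 19939 genes in LiPS-47 minus LiPS-50, Zic2 was at place 30, Zic5 at 41, Fgf5 at 55 and Otx2 at 435, whereas Pou3f1 was at 1455, Sox3 at 2787 and Foxd3 at 8178. In LiPS-45 minus LiPS-50, Zic2, Zic5, Fgf5 and Otx2 were at places 18, 39, 52 and 169, and Foxd3 was at 880, Pou3f1 at 2739 and Sox3 at 7181. In LiPS-57 minus LiPS-50, Zic2, Zic5, Fgf5 and Otx2 were at 11, 29, 41 and 98, and Foxd3 was at 1743, Pou3f1 at 5788 and Sox3 at 8332. The places of Zic5 rest on its brightest probe set, whose numbering does not match chromosome 14 and whose differences exceed those of the dimmer one. The balance of calls over all probe sets depended on scaling: 2403 were higher and 2368 lower in LiPS-45 minus LiPS-50 with the values as deposited, and 3227 were higher and 1723 lower after median centring of the arrays. The corresponding counts were 2165 and 2362, then 2882 and 1753, in LiPS-57 minus LiPS-50.

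Among LiPS-45, LiPS-57 and LiPS-47, no member passed in any pair. The background was low as well: 0.266% of all probe sets passed in LiPS-45 minus LiPS-57, 0.0622% in LiPS-45 minus LiPS-47 and 0.159% in LiPS-57 minus LiPS-47. At an unadjusted limma p under 0.05, no member passed in LiPS-45 minus LiPS-57, where 8.01% of all probe sets did. Zic2, Otx2 and Foxd3 did so in LiPS-45 minus LiPS-47, where 8.93% of all probe sets did, and all were higher in LiPS-45. Zic2, Otx2, Foxd3 and Pou3f1 did so in LiPS-57 minus LiPS-47, where 6.89% of all probe sets did. Zic2, Otx2 and Foxd3 were again higher in LiPS-57 (0.20, 0.22 and 0.20), while Pou3f1 gave -0.18 and so was lower there.

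Whether the primed epiblast factors differ with competence was tested with line as a random effect. A correlation of 0.183 within lines was shared by all probe sets. The error thus holds only part of the spread between lines for genes such as Zic2, with means of 8.43 in LiPS-47 and 7.41 in LiPS-50. The unadjusted p-values of such genes are likely too small. No member and 0 of 28939 probe sets passed the adjusted test (0% called), while 5 of 7 members were below an unadjusted p of 0.05, against 7.69% of all probe sets. The differences, competent minus other lines, were 0.71 for Zic2 (standard error 0.203), 0.54 for Zic5 (0.191), 0.48 for Fgf5 (0.180), 0.42 for Otx2 (0.108) and 0.27 for Foxd3 (0.0708), each with a limma adjusted p of 0.648. Pou3f1 gave 0.0042 (adjusted p = 0.993) and Sox3 gave -0.057 (adjusted p = 0.900). The median over the members was 0.42, against -0.011 over all genes. Of the lines without competence, LiPS-47 was close to the competent lines in Zic2, Zic5 and Fgf5, and LiPS-50 was far below them. For Zic2, however, LiPS-47 (8.33 to 8.56) lay just below LiPS-45 (8.57 to 8.68) and LiPS-57 (8.58 to 8.70) without overlap, as for Otx2. A contrast of the line means, with the cultures' own spread as its error, called 5 of 7 members (Zic2, Zic5, Fgf5, Otx2 and Foxd3), against 6.18% of all probe sets, with adjusted p between 1.48e-05 and 0.0126, but it treats cultures of a line as if they were lines.

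Other genes of the formative and primed epiblast were also lower in LiPS-50. Of 22 measured genes of a list of 24, 11 were higher and 0 lower in LiPS-45 minus LiPS-50, 13 higher and 2 lower in LiPS-57 minus LiPS-50, and 12 higher and 1 lower in LiPS-47 minus LiPS-50. The medians were 0.29, 0.30 and 0.31, and 7.31% to 8.48% of all probe sets passed in each direction. In all 3 comparisons the same genes were higher (Dnmt3a, Dnmt3b, Lef1, Fgf8, Lin28b, Nr6a1, Tead2, Pim2 and Cldn6), that is 9 of 22, against 4.57% of all probe sets. This list too was chosen with earlier results of these data known, so the count is a description. Lin28b, whose product blocks let-7 maturation, differed by 1.18, 1.02 and 1.01, and Fgf8, another FGF ligand, by 1.1, 0.87 and 1.21, in LiPS-45, LiPS-57 and LiPS-47 minus LiPS-50. Nr6a1, a nuclear receptor that represses Pou5f1 on differentiation, differed by 0.75, 0.64 and 0.75. Dnmt3b, a de novo DNA methyltransferase that rises at implantation, differed by 0.70, 0.61 and 0.67, and limma adjusted p was at most 1.58e-04 for these 4 genes. Dnmt3l, the cofactor of the de novo methyltransferases, and Tcf15, a bHLH factor of the formative state, went the other way: Dnmt3l gave -0.30 in LiPS-57 and -0.22 in LiPS-47 minus LiPS-50 (limma adjusted p = 0.00231 and 0.0112), and Tcf15 gave -0.33 in LiPS-57 minus LiPS-50 (0.00923). These 2 genes, and the 5 beside the 4 with values, were named after their values were seen. No gene of the list passed in a pair without LiPS-50.

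**Figure D3:**
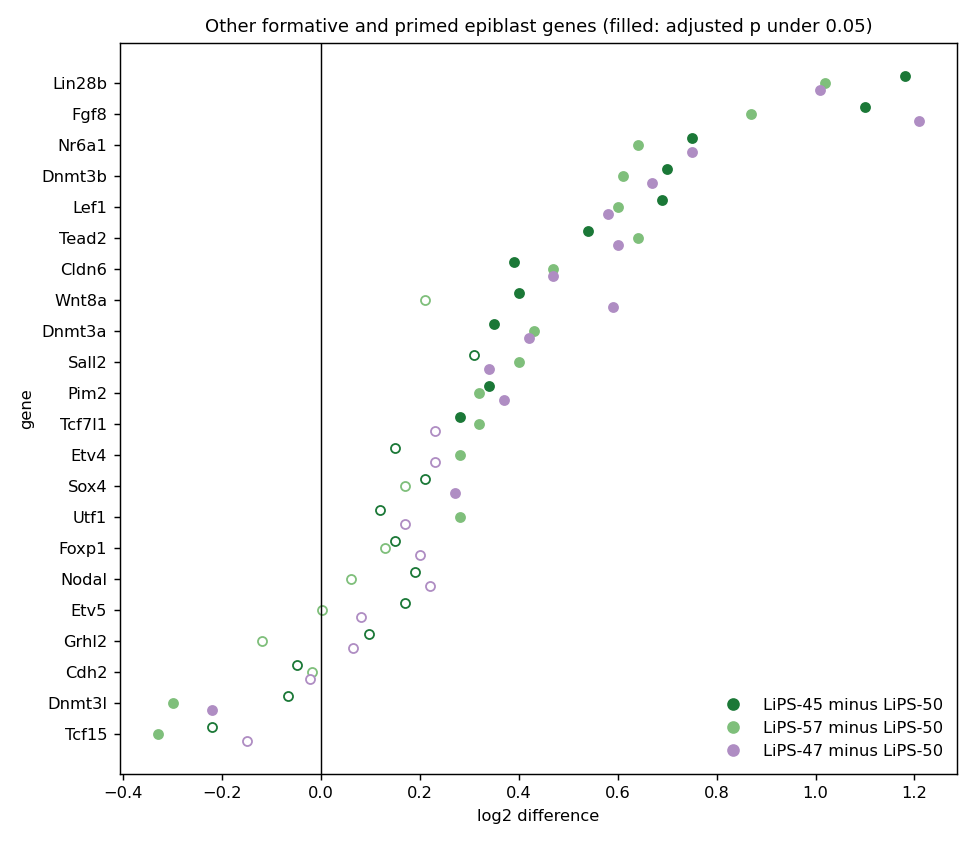
Difference from LiPS-50 on the log2 scale for 22 other genes of the formative and primed epiblast, in LiPS-45 (dark green), LiPS-57 (light green) and LiPS-47 (purple), with filled points for limma adjusted p under 0.05. Lin28b and Fgf8 lie farthest to the right, and Dnmt3l and Tcf15 lie to the left of 0.

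The closest relatives of the members by family, among them other ZIC, OTX, POU3F, FGF, SOX and FOXD genes, were read in the same way. Of 14 measured relatives, 1 was higher and 3 were lower in LiPS-45 minus LiPS-50, and 0 were higher and 1 was lower in each of LiPS-57 and LiPS-47 minus LiPS-50. All probe sets gave 8.30% higher and 8.18% lower in LiPS-45, 7.48% and 8.16% in LiPS-57, and 7.31% and 8.48% in LiPS-47. Counts this small do not set the relatives apart from other probe sets. Fgf4, the FGF ligand of the naive state, was lower in all of them than in LiPS-50, by -0.34, -0.29 and -0.30 (limma adjusted p = 0.00324, 0.0082 and 0.00568), the opposite direction to Fgf5. In LiPS-45 minus LiPS-50, Zic4 gave -0.24 and Foxd1 -0.35 (limma adjusted p = 0.0457 and 0.0232), whereas Sox2 gave 0.22 (0.0426). Of the 14 relatives, 6 had levels below the 40th percentile of all probe sets in every line.

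Genes of the signals that act on the epiblast were mixed. For comparison, 7.31% to 8.48% of all probe sets passed in each direction against LiPS-50. Of 17 FGF signal genes, 6 were higher and 2 lower in LiPS-45, 7 higher and 2 lower in LiPS-57, and 3 higher and 2 lower in LiPS-47, each minus LiPS-50. Of the 17 genes, 3 were higher in all 3 lines than in LiPS-50, namely the ERK target genes Egr1 (0.57, 0.77 and 0.55), Etv1 (0.60, 0.63 and 0.58) and Fos (0.38, 0.38 and 0.52). The receptor gene Fgfr2 was lower (-0.60, -0.61 and -0.52). Limma adjusted p was at most 0.00937 for these 4 genes. The Spry and Dusp genes, Etv4 and Etv5 of the same list were not called in all 3 lines. Of 15 measured Nodal signal genes, 3 were higher and 1 lower in LiPS-45, 4 higher and 3 lower in LiPS-57, and 5 higher and 2 lower in LiPS-47, each minus LiPS-50. The receptor gene Acvr2b differed by 0.58, 0.56 and 0.51 and the coreceptor gene Tdgf1 by 0.23, 0.27 and 0.22, with limma adjusted p of at most 0.0195. Smad3, which encodes a transducer of the Nodal signal, was the gene of this list lower in all 3 lines than in LiPS-50 (-0.41, -0.37 and -0.37; limma adjusted p at most 0.0166), and Smad4, its common partner, was higher (0.22, 0.21 and 0.24; at most 0.0462). These SMAD genes were named after their values were seen. Foxh1, which encodes a partner of the SMAD proteins, differed by 0.39 in LiPS-57 and 0.42 in LiPS-47 (limma adjusted p = 0.00331 and 0.00186), and gave 0.20 in LiPS-45 (0.086). Lefty1, a target and inhibitor of Nodal, differed by 0.37 in LiPS-47 (limma adjusted p = 0.00587), and gave 0.24 in LiPS-45 and 0.21 in LiPS-57 (0.0516 and 0.092).

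Of 16 naive pluripotency genes, 0 were higher and 3 lower in LiPS-45, 2 higher and 3 lower in LiPS-57, and 1 higher and 5 lower in LiPS-47, each minus LiPS-50. Tbx3 (-0.62, -0.62 and -0.72), Prdm14 (-0.69, -0.61 and -0.73) and Tcl1 (-0.87, -0.56 and -0.98) were lower in all 3 lines than in LiPS-50, with limma adjusted p of at most 0.00416. Tbx3 and Prdm14 encode transcription regulators of the naive state, and Tcl1 encodes a cofactor of AKT. Klf2, another naive factor, gave 0.28 in LiPS-57 minus LiPS-50 (limma adjusted p = 0.0082). Tcl1 was the only gene of the lists that passed in a pair without LiPS-50: it was higher by 0.42 in LiPS-57 minus LiPS-47 (limma adjusted p = 0.026). The medians of the list against LiPS-50 were -0.054, -0.065 and -0.14, and 7.31% to 8.48% of all probe sets passed in each direction there.

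Markers of other cells moved with the same line. All 9 pluripotent cell markers were measured. Their summed intensity was 21595 to 22318 in LiPS-45, 22204 to 22635 in LiPS-57, 21599 to 22057 in LiPS-47 and 21060 to 21619 in LiPS-50. Their mean log2(intensity + 1) was 10.77 to 10.82, 10.81 to 10.85, 10.75 to 10.8 and 10.66 to 10.68, in the same order. By that mean LiPS-50 lay below the other lines, whereas its sum overlapped those of LiPS-45 and LiPS-47. Against LiPS-50, 5 of these markers were higher and 1 lower in LiPS-45, 4 higher and 1 lower in LiPS-57, and 3 higher and 2 lower in LiPS-47. The shares of all probe sets in these comparisons were 7.31% to 8.48% in each direction. Lin28a, which encodes an RNA-binding protein that blocks let-7 maturation, gave 0.44, 0.51 and 0.48, and Sall4, a zinc finger factor gene, gave 0.30, 0.29 and 0.30 (limma adjusted p at most 0.00642). Dppa5a, named after its values were seen, was lower in these lines than in LiPS-50 (-0.26, -0.21 and -0.24; limma adjusted p at most 0.0311). Of 23 measured fibroblast and feeder cell markers, 22 were lower in LiPS-45, LiPS-57 and LiPS-47 than in LiPS-50, with Tagln as the exception in each; Pdgfra, a growth factor receptor gene of mesenchymal cells, gave -1.0, -1.11 and -1.25, and the collagen gene Col3a1 gave -0.86, -0.84 and -1.04 (limma adjusted p at most 4.24e-04). Their summed intensity was 23531 to 27524 in LiPS-45, 23676 to 25356 in LiPS-57, 20300 to 24862 in LiPS-47 and 32238 to 36154 in LiPS-50. The part of fibroblast RNA in the lower levels of the members in LiPS-50 was not tested.

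Zic, Sox and Foxd genes also act in neural cells, so markers of those were read too. The summed intensity of 11 measured neural progenitor markers was 1096 to 1135 in LiPS-45, 1159 to 1276 in LiPS-57, 1158 to 1190 in LiPS-47 and 1071 to 1100 in LiPS-50, with 4 or 5 of them below the 40th percentile of all probe sets. Of these markers, 0 passed in LiPS-45 minus LiPS-50, Nes, En2 and Tubb3 were higher in LiPS-57 (0.33, 0.20 and 0.19), and Nes was higher (0.27) and Fabp7 lower (-0.43) in LiPS-47, each minus LiPS-50. Among all probe sets, 7.31% to 8.48% passed in each direction in these comparisons. The summed intensity of 8 measured neural crest markers was 655 to 674 in LiPS-45, 663 to 672 in LiPS-57, 671 to 719 in LiPS-47 and 925 to 1023 in LiPS-50. In every line, 3 of them were below the 40th percentile. The sum gives most weight to bright genes, and Erbb3 (8.61) and Snai2 (8.08) had the highest means in LiPS-50. It is therefore not a reading of the list as a whole. Snai2 and Erbb3 were the ones that passed, both higher in LiPS-50, while Foxd3 was not.

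**Figure D4:**
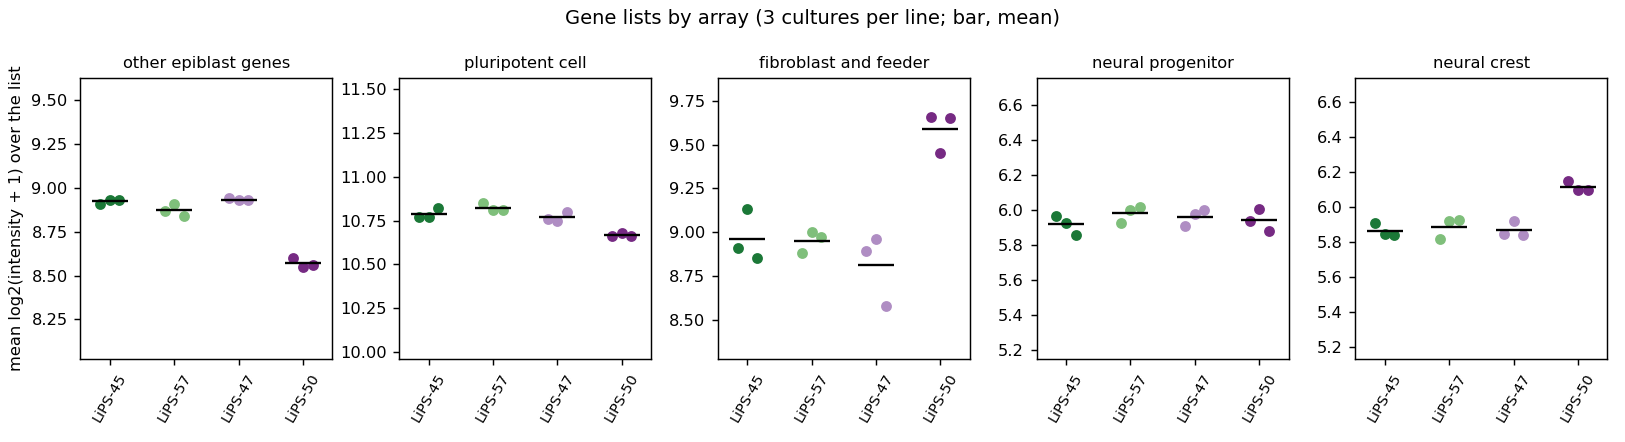
Mean log2(intensity + 1) over each gene list on the 12 arrays, with 1 point per culture and a bar at the mean of each line. The other epiblast genes lie at 8.84 to 8.94 in LiPS-45, LiPS-57 and LiPS-47 and at 8.55 to 8.60 in LiPS-50, while the fibroblast and feeder markers lie at 8.58 to 9.13 in LiPS-45, LiPS-57 and LiPS-47 and at 9.45 to 9.66 in LiPS-50.

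The measured genes beside the members on their chromosomes, 3 on each side of a member, were read in the same comparisons. Of 36 neighbours, 5 were higher and 3 lower in LiPS-45 minus LiPS-50, against 8.30% and 8.18% of all probe sets. In LiPS-57 minus LiPS-50, 2 were higher and 2 lower, against 7.48% and 8.16%. In LiPS-47 minus LiPS-50, 1 was higher and 2 were lower, against 7.31% and 8.48%. Counts this small do not set the neighbours apart from other probe sets. Around Zic2 and Zic5, Clybl gave 0.33 and Pcca 0.28 in LiPS-45 minus LiPS-50 (limma adjusted p = 0.0206 and 0.0159), whereas Tmtc4 gave -0.20 there (0.0332), and none of these genes passed in the other comparisons with LiPS-50. Near Fgf5, Antxr2 went the opposite way, with -0.48, -0.56 and -0.72 in LiPS-45, LiPS-57 and LiPS-47 minus LiPS-50 (limma adjusted p = 0.031, 0.0139 and 0.00315). Near Otx2, Ap5m1 gave 0.26 in LiPS-45 and in LiPS-57 minus LiPS-50 (limma adjusted p = 0.0234 and 0.0245). Near Pou3f1, Sf3a3, a splicing factor gene, gave 0.28, 0.20 and 0.24 (limma adjusted p = 0.0064, 0.0384 and 0.0159), beside 0.19, 0.085 and 0.27 for Pou3f1, which did not pass in LiPS-57. Near Foxd3, Usp1 gave 0.27 in LiPS-45 minus LiPS-50 (limma adjusted p = 0.0356).

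Sox3 lay above the median of the X-linked genes in each comparison with LiPS-50. The median difference of 739 X-linked genes was -0.16 for LiPS-45, -0.15 for LiPS-57 and -0.14 for LiPS-47 minus LiPS-50, against -0.0087, -0.0027 and 0.012 for 19106 autosomal genes. Of the X-linked genes, 118, 147 and 46 lay above Sox3, in the same order. Mcf2, a measured neighbour of Sox3, was lower in the same comparisons (-1.09, -1.05 and -1.11; limma adjusted p = 4.46e-05, 8.10e-05 and 4.23e-05), that is, higher in LiPS-50. Counted over the X-linked genes, 21 were higher and 264 lower in LiPS-45 minus LiPS-50, against 8.30% and 8.18% of all probe sets. In LiPS-57 minus LiPS-50, 12 were higher and 281 lower, against 7.48% and 8.16%. In LiPS-47 minus LiPS-50, 17 were higher and 273 lower, against 7.31% and 8.48%. Xist, named after its values were seen, gave -1.67, -1.86 and -2.09, and so was higher in LiPS-50 as well. LiPS-50 is 1 line, so its X-linked difference cannot be told apart from its other traits. The part of the X-linked difference in the levels of the members was not tested. Pim2, of the other epiblast genes, is X-linked as well and was higher in all 3 lines than in LiPS-50 (0.34, 0.32 and 0.37).

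**Figure D5:**
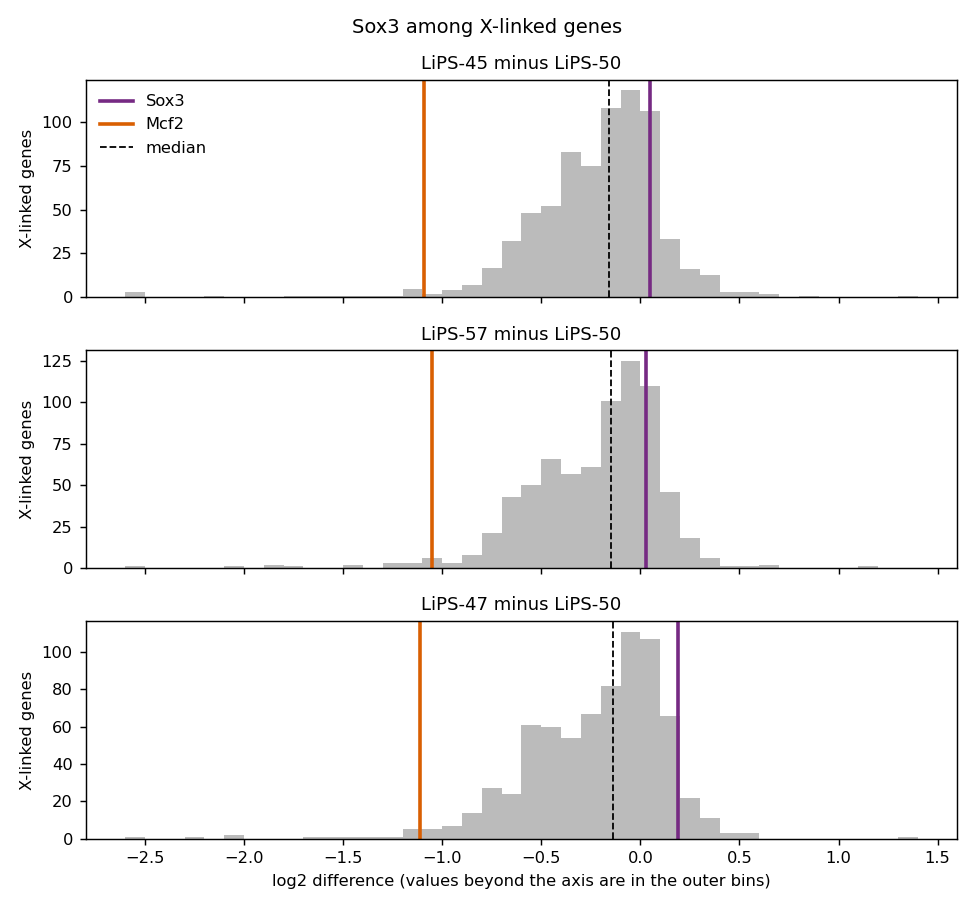
Number of X-linked genes by log2 difference in LiPS-45, LiPS-57 and LiPS-47 minus LiPS-50, with lines at Sox3 and its neighbour Mcf2 and a dashed line at the median. The median lies at -0.16, -0.15 and -0.14, Sox3 to its right and Mcf2 far to its left.

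The genes with the most similar profiles were found by the root mean square distance over the 12 arrays, after each gene was centred on its own mean, among genes with a mean at or above the median of all genes. Zic5 was read from its brightest probe set, whose numbering does not match chromosome 14. For Zic5 the nearest was Sox11, which encodes a SOXC factor, at a distance of 0.0545 log2 units, followed by Ap1s3 and Slc6a15. For Zic2 the nearest were Slc6a15 (0.0956), Sox11 (0.111) and Zic5 (0.115). Sox11 had mean levels of 8.51 for LiPS-45, 8.44 for LiPS-57, 8.41 for LiPS-47 and 7.45 for LiPS-50, a pattern that separates LiPS-50 as the ZIC genes do. For Fgf5 they were Slc27a2 (0.111), Il17rd, an FGF signal inhibitor gene (0.117), and Anp32a (0.117), and for Otx2 they were Lhpp (0.058), Rabl2 (0.0713) and Hlcs (0.0716). For Pou3f1, which differs little between lines, Prkci lay nearest (0.0311), followed by Fdps and Bub1b. Foxd3 had Tedc1 (0.0724), Wdr25 and Prkab2, and Sox3 had Ifnl2 (0.0773), Adarb1 and AA386476. The 12 arrays fall into 4 lines, so genes with a like pattern of line means lie close by this measure.

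Within lines, correlations between the members lay on both sides of 0. After each line's mean was removed, Pearson's r over the 12 arrays lay between -0.58 (Zic2 with Otx2) and 0.56 (Zic2 with Zic5) for the 21 pairs of members, with a median of -0.05 and 9 pairs above 0. The adjacent genes Zic2 and Zic5 were the pair with the highest value, and the 2 probe sets of Zic5 reached 0.28 between themselves. The value of Zic2 with Zic5 rests on the brightest Zic5 probe set, whose numbering does not match chromosome 14. These correlations rest on small deviations between cultures and are given as a description.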

How the data were processed

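Total RNA of 12 cultures was amplified and labelled for whole-transcript arrays, per the labels' protocols. The authors deposited probe set intensity values on a linear scale, 1 value for each probe set on each array. GCOS 1.4 is named in the submitters' processing notes. How probes were summarised, background-corrected and normalized is not given in the sources used here. Array medians differed by at most 0.0833 on the log2 scale, so the deposited scale was kept and values were turned into log2(value + 1).

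Of 35556 probe sets, 6617 numbered below the array annotation were left out as controls. Of the 28939 tested, 21789 list 1 gene, 1621 several and 5529 none, and 19856 of 19939 genes matched the RefSeq gene table (GRCm38.p6), which gave symbols, chromosomes and gene order. The array annotation names no genome build, so coordinates are those of the RefSeq promoters only.

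Line pairs were tested with limma 3.58.1 in R 4.3.3 (4 line means over 12 arrays, 8 residual and 4.06 prior degrees of freedom, two-sided, Benjamini-Hochberg over 28939 probe sets, threshold 0.05), and competence with line as a random effect (limma's duplicateCorrelation gave a consensus of 0.183). The script was tested on simulated data. These had no spread between lines of a class, so they do not show how the competence test behaves under such spread. Arrays with the same replicate number did not deviate together on average (mean r of 0.021, 0.012 and -0.027 for numbers 1, 2 and 3), so the numbers were not used as pairs. With so few cultures, a mean r near 0 cannot decide whether cultures of a number shared a batch. The alternatives were pseudocounts of 0 and 16, centring each array on its median, quantile normalization, a filter at the 40th percentile, all probe sets, a pair of lines alone, a replicate block, the other Zic5 probe set and leaving out each array. Named were all members, up to 4 genes per list with the smallest p against LiPS-50, list genes that passed in another pair, the 3 nearest profiles, and neighbours. Members and lists were chosen with earlier results of these data known. The number of arrays limits the precision.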

Additional observations from a re-analysis of the deposited data

How the results depend on the processing

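Zic2, Zic5, Fgf5 and Otx2 passed against LiPS-50 in LiPS-45, LiPS-57 and LiPS-47 under every alternative run. Their lowest differences in LiPS-47 minus LiPS-50 were 0.96, 0.64 (the dimmer Zic5 probe set), 0.77 and 0.36, and their highest 1.08, 1.03, 0.91 and 0.50. With the replicate number as a block, the members called against LiPS-50 stayed at 6 for LiPS-45, 4 for LiPS-57 and 5 for LiPS-47, and no call of a member changed; 5 of 12 arrays correlated best with an array of their own number, and the count over all probe sets moved by less than 1.5 times in these comparisons. With 1 array left out in turn, the counts lay between 5 and 6, between 4 and 5, and at 5. The contrast of line means with the spread between cultures as error called 5 members for competence (Zic2, Zic5, Fgf5, Otx2 and Foxd3), against 0 with the line as a block, where leaving out arrays kept 0.

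Between pairs of lines, the calls that changed were those of Pou3f1 and Foxd3. Pou3f1 in LiPS-45 minus LiPS-50 stayed at 0.17 to 0.22 with arrays left out. Foxd3 in LiPS-57 minus LiPS-50 was 0.24, and gave 0.29 with median centring (adjusted p = 0.0234), 0.27 with quantile normalization (0.037), 0.24 with dim probe sets left out (0.026) and 0.21 with a pseudocount of 16 (0.0353); it also passed without LiPS-57 replicate 2 (0.31; adjusted p = 0.0244) and without LiPS-47 replicate 3 (0.24; 0.0483). The cause was not tested. Over all probe sets, LiPS-45 minus LiPS-50 had 4771 calls and 3106 without LiPS-45 replicate 3. Pairs without LiPS-50 had 77 calls (LiPS-45 minus LiPS-57; 41 to 111 over the alternatives), 18 (LiPS-45 minus LiPS-47; 3 to 50) and 46 (LiPS-57 minus LiPS-47; 19 to 61, with 25 under the replicate block), and competence had 0 and 1789 with the contrast of line means.

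Signs turned only among differences that did not pass. The dimmer Zic5 probe set gave -0.025 in LiPS-45 minus LiPS-57, -0.12 in LiPS-45 minus LiPS-47 and -0.091 in LiPS-57 minus LiPS-47. Quantile normalization gave -0.004 for Fgf5 in LiPS-57 minus LiPS-47 and -0.013 for Pou3f1 in competent minus other lines. Leaving out arrays gave -0.045 to 0.017 for Zic2 and -0.044 to 0.12 for Sox3 in LiPS-45 minus LiPS-57, -0.0012 to 0.085 for Zic5 and -0.068 to 0.085 for Fgf5 in LiPS-57 minus LiPS-47, -0.017 to 0.13 for Sox3 in LiPS-45 minus LiPS-50, -0.066 to 0.11 for Sox3 in LiPS-57 minus LiPS-50, -0.0079 to 0.076 for Foxd3 in LiPS-47 minus LiPS-50, and -0.02 to 0.024 for Pou3f1 in competent minus other lines.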
